A study of Mus musculus with 17 samples.

Results

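The comparison described here asks what loss of HIF2a changed in kidneys that express the PRCC-TFE3 fusion, over and above loss of HIF1a. It sets 6 HIF2a-deleted against 7 HIF2a-intact knock-in kidneys, 13 of the 17 RNA-seq libraries of the series, with the HIF1a genotype as a covariate. All 13 mice carried the lsl-PRCC-TFE3 knock-in (KI) together with KSP-Cre(+), a Cre recombinase driven by the Cadherin 16 promoter of kidney tubular epithelium, which removes the stop cassette and any floxed HIF exon in those cells. The HIF2a-intact group held 3 KI mice without floxed HIF genes and 4 HIF1a KO mice (HIF1af/f). The HIF2a-deleted group held 3 HIF2a KO mice (HIF2af/f) and 3 HIF1a/HIF2a DKO mice (HIF1af/f and HIF2af/f). The remaining 4 libraries were Cre(-) kidneys that carry the silent cassette, of which replicates 1 and 2 were also HIF1af/f; they are given as a background and enter no test here. Poly(A) RNA of whole kidney was sequenced, from mice that the study describes as 8 months old. Cells that do not express Cadherin 16, such as endothelium, stroma and immune cells, keep their HIF genes in this design. No Cre(-) mouse carried floxed HIF2a, so that the deletion and the DNA inherited together with the floxed allele cannot be told apart.

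HIF2a, the product of Epas1, is an oxygen-regulated transcription factor. In normoxia it is hydroxylated by prolyl hydroxylases (Egln genes), bound by the von Hippel-Lindau protein and degraded. When stabilised it pairs with ARNT and binds hypoxia response elements, of whose core sequence ACGTG is a form. Other forms of that core were not searched here. In the kidney HIF2a is best known for erythropoietin and iron genes, and in clear cell renal carcinoma for lipid droplet and angiogenic genes, while HIF1a is more often tied to glycolysis and mitophagy. PRCC-TFE3 retains the DNA-binding domain of TFE3, a factor of the MiT/TFE family that switches on lysosomal genes through a related sequence, TCACGTGA.

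The libraries held 16504419 to 24668827 estimated counts (median 18496076), so that 3 counts correspond to 0.122 to 0.182 CPM, the count of a gene relative to a library total set to the same size in every library. CPM below are scaled by the trimmed mean of M values (TMM) over all 17 libraries. Changes are log2 fold changes of HIF2a-deleted against HIF2a-intact kidneys with their standard error (SE), from a negative binomial quasi-likelihood fit over 16738 genes, so that a negative value means less transcript after HIF2a loss. A gene is called changed at a Benjamini-Hochberg adjusted p under 0.05. Nothing in the labels says how mice of a group were related. The p-values set each group difference against the spread between these libraries, which the test takes as independent.

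Epas1 itself (chr17:86753700-86833410) was examined before any other gene. Its level was 173, 191 and 178 CPM in the KI kidneys and 163, 169, 167 and 180.1 CPM in the HIF1a KO kidneys. After deletion it was 147, 151 and 137 CPM (HIF2a KO) or 156, 165 and 159 CPM (DKO). The groups met between 163 and 165 CPM, and the drop of 0.20 ± 0.06 (SE) on the log2 scale missed the threshold (adjusted p = 0.057). Cre(-) kidneys held more, 195 to 254 CPM. These are counts over the whole gene, and transcript Epas1-201 took at least 99.8% of them in every library. They include exons outside the floxed one and cells without Cre, and so do not measure how much of the allele was recombined.

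**Figure D1:**
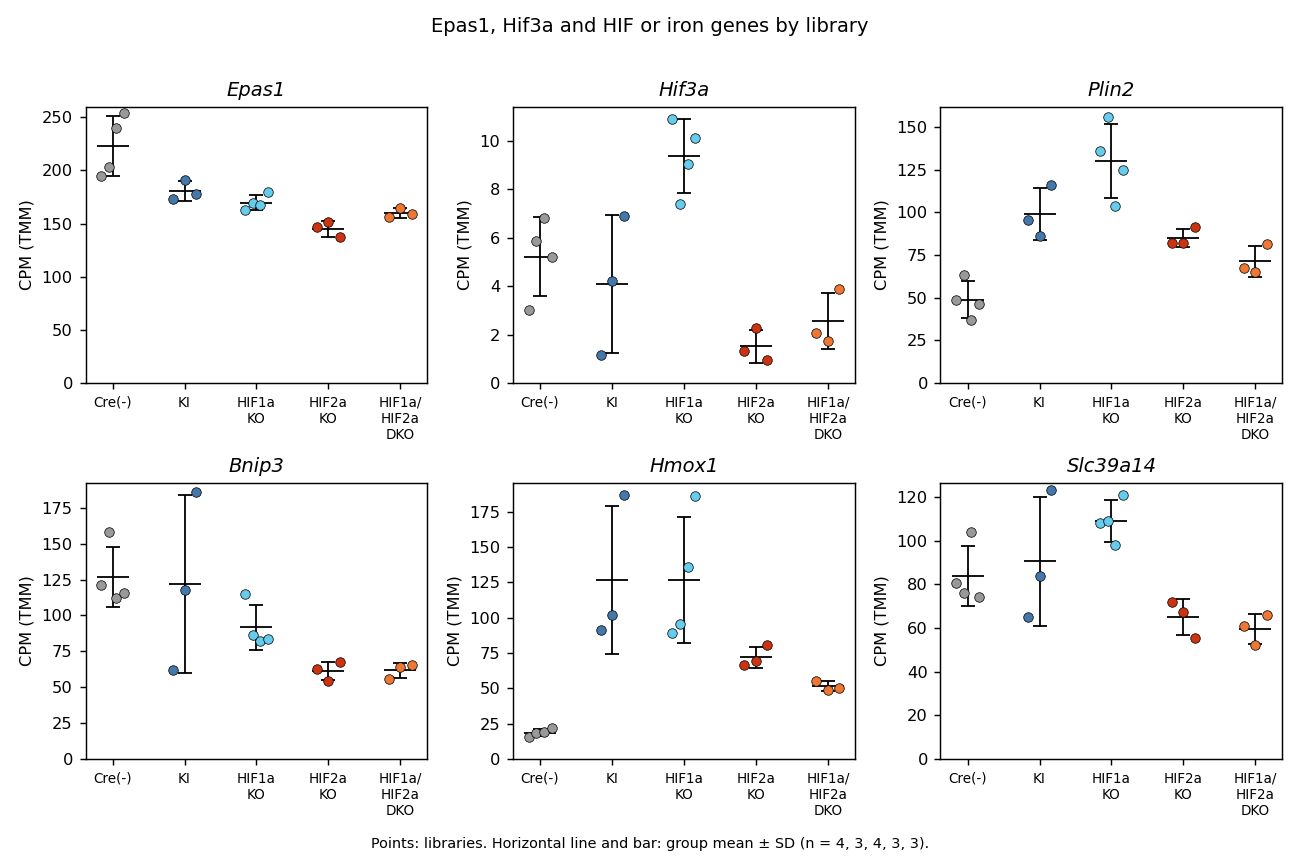
Level in CPM (TMM-scaled, linear axis from 0) of Epas1, Hif3a, Plin2, Bnip3, Hmox1 and Slc39a14 in each library, with a point per library and the group mean ± SD (n = 4 Cre(-), 3 KI, 4 HIF1a KO, 3 HIF2a KO and 3 DKO). For Hmox1 the 6 HIF2a-deleted kidneys lie at 48.8 to 80.5 CPM, below all 7 HIF2a-intact ones, whereas Bnip3 and Hif3a of KI replicate 1 lie within the HIF2a-deleted range.

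Among the other HIF subunits and regulators, Hif3a fell and nothing else passed the test (1 of 11 lower and 0 higher, median log2 fold change -0.15). Hif3a encodes a HIF subunit that can restrain HIF activity. Its level was 1.15, 4.23 and 6.88 CPM in KI, 10.9, 7.37, 9.05 and 10.1 CPM in HIF1a KO, 1.3, 2.25 and 0.967 CPM in HIF2a KO and 2.06, 1.74 and 3.89 CPM in DKO kidneys, a log2 fold change of -1.67 ± 0.36 (SE, adjusted p = 0.024). Every HIF1a KO kidney was above every HIF2a-deleted kidney, but KI replicate 1 was not, and the call was lost without KI replicate 3 (adjusted p = 0.052) or DKO replicate 2 (adjusted p = 0.065). Hif1a did not move with HIF2a genotype (198 ± 24.1 against 199 ± 31.6 CPM, SD, n = 7 and 6, adjusted p = 0.98). Vhl, which targets hydroxylated HIF for degradation, stood at 38.5 ± 8.12 CPM in the intact and 31.4 ± 3.53 CPM in the deleted group (SD, n = 7 and 6) without passing (adjusted p = 0.077).

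Over all genes tested, 946 of 16738 were called, a share of 5.65%. Of these 451 were higher in the HIF2a-deleted kidneys (2.69%) and 495 were lower (2.96%), and 4285 genes had an unadjusted p under 0.05. Most changes were small: the median was 0.55 among the higher and -0.41 among the lower calls on the log2 scale, and 55 higher and 60 lower genes reached an absolute log2 fold change of 1. The libraries of both groups did not overlap at all for 267 of the called genes. Called genes were selected for a group difference, which favours such separation, and the share over all tested genes was not counted. The median over all tested genes was 0.003. The balance of directions was different in an alternative that changed test, input and normalisation together: with limma on log2(TPM + 1), a scale that corrects for transcript length, 692 genes were higher and 148 lower, so that 82.4% of calls were higher against 47.7% in the count fit, and the median over all genes moved to 0.072. With log2(TPM + 0.1) the split was 581 to 135 (81.1% higher) around a median of 0.086.

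How many genes were called also depended on single libraries. Without DKO replicate 2 the count was 203, without HIF1a KO replicate 2 it was 377 and without HIF1a KO replicate 4 it was 384. It was 429 without DKO replicate 3, 448 without KI replicate 3, 453 without HIF2a KO replicate 2, 492 without HIF2a KO replicate 3 and 522 without KI replicate 2, and it rose to 1369 without KI replicate 1. Of the 46 called genes that the naming rule selects, 11 were called whichever library was left out: Cdkn1a, Col1a1, Col3a1, Dio2, Erich4, Fkbp5, Lhcgr, Lrmda, Mchr1, Mmp13 and Plin4. The other 35 lost the call in at least 1 such fit, 34 of them without DKO replicate 2, while none changed direction.

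**Figure D2:**
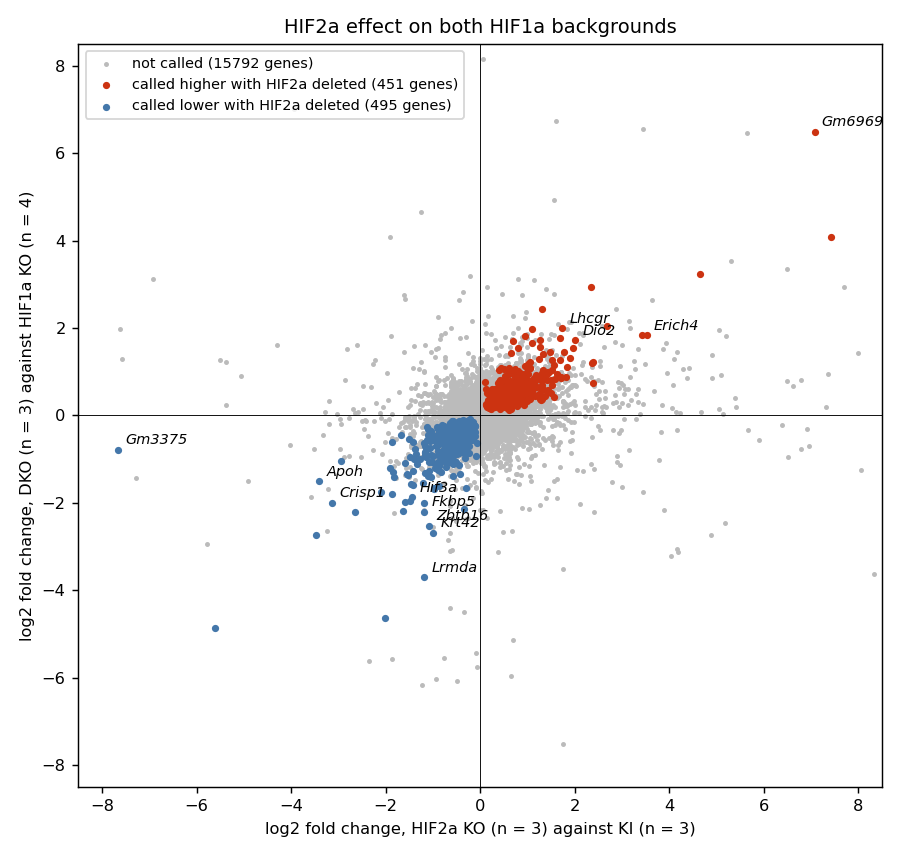
Each point is a tested gene, with its log2 fold change of HIF2a KO against KI on the x axis and of DKO against HIF1a KO on the y axis. Genes called in the joint fit are coloured by direction, and all 946 of them have the same sign on both axes; 3 genes lie outside the axes.

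The deletion was also read on each HIF1a background alone, in fits that share no library. On the HIF1a-intact background (3 HIF2a KO against 3 KI), 2 genes were called (0.0119%). On the HIF1a-deleted background (3 DKO against 4 HIF1a KO), 155 were called (0.926%), of which 32 were higher and 123 lower. The count of 155 became 1 without DKO replicate 2, 3 without DKO replicate 1, 12 without HIF1a KO replicate 4, 29 without HIF1a KO replicate 3, 60 without DKO replicate 3, 89 without HIF1a KO replicate 1 and 103 without HIF1a KO replicate 2. With DESeq2 the counts were 541 and 799, and with limma on log2(TPM + 1) they were 6 and 46. Across all tested genes the log2 fold changes on these backgrounds had a Pearson r of 0.31; genes are not independent replicates, and this is a description. A gene called in the joint fit draws on both backgrounds, so that a shared sign is built into the selection. An interaction term, which asks whether the HIF2a effect differs with HIF1a genotype, called 0 genes (0%) by edgeR, with 1000 at an unadjusted p under 0.05, while DESeq2 called 47 (17 positive and 30 negative) and limma called 1. Lrmda, a leucine-rich melanocyte differentiation gene, was the named gene with the lowest interaction p. It stood at 7.27, 7.13 and 7.45 CPM in KI, 3.38, 2.96 and 3.31 CPM in HIF2a KO, 6.43, 5.03, 2.95 and 6.7 CPM in HIF1a KO and 0.392, 0.264 and 0.541 CPM in DKO kidneys. Its log2 fold change was -1.19 ± 0.16 with HIF1a intact and -3.70 ± 0.39 with HIF1a deleted (SE), an interaction that did not pass over all genes (adjusted p = 0.2).

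HIF targets followed HIF2a genotype in a few members only. Of 17 measured targets of angiogenesis, erythropoiesis and growth, Plin2 and Igfbp3 fell, none rose, and the median was -0.23. Of 29 targets of glycolysis and metabolism, Bnip3 fell, none rose, and the median was -0.18. The shares of 11.8% and 3.45% stand beside 5.65% over all genes, and Bnip3 kept its call in 2 of the 13 fits without a library. The 2 lower calls of the former list became 0 without HIF1a KO replicate 2, HIF1a KO replicate 4, HIF2a KO replicate 2, any of the DKO replicates or KI replicate 3, and 1 without HIF1a KO replicate 1, HIF2a KO replicate 1, HIF2a KO replicate 3 or KI replicate 2. In a whole-kidney sample fewer cells of a type and less RNA per cell cannot be told apart.

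Plin2, which coats lipid droplets, held 95.7, 86.2 and 116 CPM in KI and 136, 156, 104 and 125 CPM in HIF1a KO kidneys, against 82.1, 82.1 and 91.3 CPM in HIF2a KO and 67.5, 64.8 and 81.5 CPM in DKO kidneys. HIF2a KO replicate 3 thus overlapped with KI replicate 2, while on the HIF1a-deleted background the libraries were apart. The log2 fold change was -0.57 ± 0.13 (SE, adjusted p = 0.031), with -0.23 ± 0.12 on the HIF1a-intact and -0.87 ± 0.15 on the HIF1a-deleted background; the difference between these did not pass (adjusted p = 0.7). Igfbp3, an insulin-like growth factor binding protein, went from 140.4 ± 29.1 to 101 ± 15.7 CPM (SD, n = 7 and 6; log2 fold change -0.49 ± 0.13, SE, adjusted p = 0.048). Bnip3, a mitophagy receptor, held 62, 118 and 186 CPM in KI, 115, 86.5, 81.9 and 83.9 CPM in HIF1a KO, 62.6, 54.6 and 67.3 CPM in HIF2a KO and 55.9, 64.1 and 65.6 CPM in DKO kidneys. All HIF2a-deleted kidneys lay in a narrow range that only KI replicate 1 shared (log2 fold change -0.77 ± 0.20, SE, adjusted p = 0.044). Igfbp3 kept its call in 2 of the 13 fits without a library, and Plin2 in 6.

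The remaining HIF targets gave values without a call. Vegfa, the main angiogenic growth factor, changed by -0.20 on the log2 scale (adjusted p = 0.25), and Slc2a1, the glucose transporter GLUT1, and Ldha, lactate dehydrogenase, each by -0.14. Pgk1 of glycolysis changed by -0.35 and Ndrg1 by -0.48. Car9, carbonic anhydrase 9 and a classical marker of HIF1a activity, had a value of 0.77 (adjusted p = 0.1). Angptl4, an inhibitor of lipoprotein lipase, had the largest value of its list, -1.40 ± 0.51 (SE, adjusted p = 0.11). Its 3 KI kidneys held 17.4, 27.7 and 59.9 CPM and its 3 HIF2a KO kidneys 41.9, 20.2 and 23.7 CPM, whereas the 4 HIF1a KO kidneys held 248, 182, 135 and 149.7 CPM and the 3 DKO kidneys 13.7, 21.4 and 69.1 CPM. The difference for Angptl4 was thus seen beside HIF1a KO, where no library of the 2 groups overlapped, and not beside KI, although the interaction did not pass (adjusted p = 0.79).

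The promoter windows of Bnip3 and Plin2, from 250 bases before to 20 bases after the transcription start, are shown because they hold the ACGTG form of the hypoxia response core. Letters are in the direction of transcription, and capitals mark ACGTG on either strand, here within the palindrome CACGTG.
Bnip3, minus strand of chr7:138909487-138909756 (GRCm38.p6): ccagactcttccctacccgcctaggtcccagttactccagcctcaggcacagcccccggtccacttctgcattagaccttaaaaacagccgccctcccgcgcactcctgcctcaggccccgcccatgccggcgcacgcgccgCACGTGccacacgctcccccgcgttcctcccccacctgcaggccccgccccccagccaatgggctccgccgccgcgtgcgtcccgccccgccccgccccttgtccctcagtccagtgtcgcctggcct
Plin2, minus strand of chr4:86670040-86670309 (GRCm38.p6): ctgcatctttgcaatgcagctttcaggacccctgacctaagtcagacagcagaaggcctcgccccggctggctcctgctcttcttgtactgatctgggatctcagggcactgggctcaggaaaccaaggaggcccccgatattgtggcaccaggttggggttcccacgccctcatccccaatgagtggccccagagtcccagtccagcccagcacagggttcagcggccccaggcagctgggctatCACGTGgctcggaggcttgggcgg
In Plin2 the match lies close to the start, and in Bnip3 further upstream. The windows of Igfbp3 and Hif3a held no ACGTG. Over 32851 RefSeq promoters searched on both strands, 17.9% held ACGTG, and among those of tested genes with a sequence 21.9% did (2657 of 12121). The share was 25.3% among genes called lower (97 of 383) and 19.6% among genes called higher (64 of 326). A match is a run of letters and does not show binding.

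In iron and heme handling, Hmox1 and Slc39a14 fell, and none of the 18 measured members rose (11.1% called against 5.65% over all genes, median -0.16). Hmox1 encodes heme oxygenase 1, which breaks down heme and releases iron. Its level was 91.6, 102 and 187 CPM in KI, 89.4, 95.2, 136 and 186 CPM in HIF1a KO, 66.2, 69.1 and 80.5 CPM in HIF2a KO and 55.3, 48.8 and 50.3 CPM in DKO kidneys. The groups did not overlap, the log2 fold change was -1.08 ± 0.21 (SE, adjusted p = 0.017), and all the deleted kidneys were still above the Cre(-) kidneys at 15.7 to 21.9 CPM. Slc39a14, the metal importer ZIP14, held 64.9, 83.6 and 123 CPM in KI, 108, 109, 98 and 121 CPM in HIF1a KO, 71.8, 67.4 and 55.6 CPM in HIF2a KO and 60.7, 52 and 65.9 CPM in DKO kidneys. KI replicate 1 overlapped with the deleted group (log2 fold change -0.69 ± 0.14, SE, adjusted p = 0.019). Hmox1 and Slc39a14 both lost the call without DKO replicate 2 alone, where their adjusted p reached 0.053 and 0.057, and without KI replicate 1 the list had 5 lower calls. Ceruloplasmin (Cp), a ferroxidase, and ferritin heavy chain (Fth1) were just outside the threshold, at -0.51 ± 0.14 (adjusted p = 0.055) and -0.38 ± 0.11 (SE, adjusted p = 0.065). Epo and hepcidin (Hamp, Hamp2) were too low to be tested.

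Several genes of the MiT/TFE programme fell by modest amounts. Of 20 members, Lamp1, Flcn, Rragc, Mcoln1 and Fnip2 fell, while 18 of 20 log2 fold changes were negative and the median was -0.20. Flcn, Fnip2 and Rragc belong to the folliculin and Rag GTPase circuit that controls TFE3 on the lysosome, Lamp1 is a lysosomal membrane protein and Mcoln1 the lysosomal calcium channel. Flcn held 96.1, 101 and 110.0 CPM in KI, 74.3, 93, 79.5 and 96.9 CPM in HIF1a KO, 74.6, 76 and 79.7 CPM in HIF2a KO and 75.9, 74.7 and 72 CPM in DKO kidneys. Rragc held 165, 186 and 183 CPM in KI, 134, 154, 127 and 147 CPM in HIF1a KO, 128, 132 and 132 CPM in HIF2a KO and 136, 116 and 122 CPM in DKO kidneys. For both genes the separation was complete beside KI and not beside HIF1a KO. Log2 fold changes of the 5 lower genes were -0.31 ± 0.07 for Lamp1, Flcn and Rragc, -0.33 ± 0.08 for Mcoln1 and -0.38 ± 0.10 for Fnip2 (SE), with adjusted p from 0.025 to 0.049. The 5 lower calls became 0 without HIF1a KO replicate 2, HIF2a KO replicate 2, DKO replicate 2 or DKO replicate 3, and 1 without HIF1a KO replicate 4, HIF2a KO replicate 3 or KI replicate 3; they were 10 with DESeq2 and 0 with limma on TPM. Gpnmb, a melanosomal and lysosomal glycoprotein that TFE3 fusions induce, held 12960.0, 14140.0 and 15580.0 CPM in KI against 0.983 to 2.12 CPM in Cre(-) kidneys. With HIF2a deletion it spread from 2809 to 11450.0 CPM, and with HIF2a intact from 3260.0 to 15580.0 CPM, so that no change was called (-0.59 ± 0.26, SE, adjusted p = 0.17).

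The promoter windows of Mcoln1 and Rragc are shown because both carry CACGTG and that of Mcoln1 also holds the full TCACGTGA, which contains ACGTG. Capitals have the same meaning as above, with TCACGTGA in capitals over its whole length.
Mcoln1, plus strand of chr8:3500269-3500538 (GRCm38.p6): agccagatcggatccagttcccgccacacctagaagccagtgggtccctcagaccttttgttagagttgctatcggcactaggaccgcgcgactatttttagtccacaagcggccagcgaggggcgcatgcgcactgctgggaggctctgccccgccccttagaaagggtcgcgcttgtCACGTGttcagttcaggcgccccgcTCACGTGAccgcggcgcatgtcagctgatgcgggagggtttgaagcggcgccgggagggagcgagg
Rragc, plus strand of chr4:123917183-123917452 (GRCm38.p6): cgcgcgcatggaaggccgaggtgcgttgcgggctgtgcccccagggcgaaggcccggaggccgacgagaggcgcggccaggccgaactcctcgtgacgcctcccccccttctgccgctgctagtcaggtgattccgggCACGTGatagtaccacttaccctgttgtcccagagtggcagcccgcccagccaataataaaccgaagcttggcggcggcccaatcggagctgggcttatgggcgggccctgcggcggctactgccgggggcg
TCACGTGA was found in 0.904% of all 32851 promoters and in 1.58% of those of tested genes, and in 1.04% of those of lower and 1.84% of those of higher calls. The window of Lamp1 (chr8:13158911-13159180, plus strand) held ACGTG at 4 places, and those of Flcn and Fnip2 held none. In these letters the hypoxia response core and the MiT/TFE core overlap, so that a match to ACGTG does not tell the factors apart.

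The 12 largest decreases included genes of very different function. Crisp1, a secreted cysteine-rich protein known from the epididymis, held 5.78, 16.3 and 35.2 CPM in KI, 2.26, 13.8, 3.75 and 6.08 CPM in HIF1a KO, 0.998, 3.62 and 1.88 CPM in HIF2a KO and 3.23, 0.686 and 0.935 CPM in DKO kidneys, and was at 0 in all 4 Cre(-) kidneys. Its log2 fold change was the most negative of the named genes (-2.55 ± 0.58, SE, adjusted p = 0.029), with a wide spread among HIF2a-intact kidneys. Mchr1, the receptor of melanin-concentrating hormone, held 7.27, 20.4 and 41.7 CPM in KI, 8.64, 12, 9.76 and 13.7 CPM in HIF1a KO, 6.25, 8.43 and 4.28 CPM in HIF2a KO and 3.82, 1.74 and 3.98 CPM in DKO kidneys (-1.83 ± 0.34, SE, adjusted p = 0.016). Tnr, the extracellular glycoprotein tenascin R, went from 10.2 ± 4.45 to 3.31 ± 1.91 CPM (SD, n = 7 and 6; -1.73 ± 0.34, SE, adjusted p = 0.019), beside 0.053 to 0.136 CPM in Cre(-) kidneys. Lyve1, the hyaluronan receptor of lymphatic endothelium and some macrophages, went from 7.43 ± 4.56 to 2.33 ± 1.08 CPM (SD, n = 7 and 6; adjusted p = 0.022). Apoh (-2.47), Ms4a4a (-1.93) and Krt42 (-1.83) fell at levels of a few CPM. These 7 genes and Lrmda had a higher group mean in KI than in Cre(-) mice, and none fell to the Cre(-) level in every HIF2a-deleted kidney except Lrmda, which went below it. Crisp1 was called in 5, Apoh in 7 and Ms4a4a in 6 of the 13 fits without a library, and Mchr1 and Lrmda in all of them.

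The other large decreases, Fkbp5, Zbtb16, Slc10a6 and, below the first 12, Tsc22d3, are known to respond to glucocorticoids. Fkbp5, a co-chaperone of the glucocorticoid receptor, held 62.5, 209 and 235 CPM in KI, 376, 259, 322 and 337 CPM in HIF1a KO, 90.7, 79.2 and 54.4 CPM in HIF2a KO and 57.5, 48.1 and 105 CPM in DKO kidneys (-1.72 ± 0.33, SE, adjusted p = 0.017). KI replicate 1 lay among the HIF2a-deleted kidneys, and Cre(-) replicate 1, at 75.9 CPM, lay far below the other Cre(-) kidneys at 163 to 208 CPM. Zbtb16, a zinc finger transcription factor, showed the same order, with 9.11, 67.4 and 100.4 CPM in KI, 117, 107, 108 and 123 CPM in HIF1a KO, 41, 30.6 and 12 CPM in HIF2a KO and 17.1, 14.5 and 27.7 CPM in DKO kidneys (-1.84 ± 0.48, SE, adjusted p = 0.046). Tsc22d3, which encodes the glucocorticoid-induced leucine zipper, held 62.9, 119 and 210.4 CPM in KI, 253, 189, 213 and 251 CPM in HIF1a KO, 87.8, 72.9 and 55.5 CPM in HIF2a KO and 70.8, 55.9 and 94.2 CPM in DKO kidneys (-1.27 ± 0.26, SE, adjusted p = 0.020). All HIF1a KO kidneys were above all DKO kidneys for these 3 genes.

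Because of these genes, 5 further lists were added after values of some of their members had been seen, so that their counts are descriptions. Of 23 measured glucocorticoid-responsive genes, 12 fell and none rose (52.2% against 5.65% over all genes; median -0.67). The lower genes were Fkbp5, Tsc22d3, Zbtb16, the metallothioneins Mt1 and Mt2, glutamine synthetase (Glul), the kinase Sgk1, the transcription factors Klf9 and Cebpb, the clock gene Per1, the cell cycle inhibitor Cdkn1a and Pdk4, which restrains pyruvate dehydrogenase. The median was -0.34 on the HIF1a-intact and -0.87 on the HIF1a-deleted background. Pdk4 held 207, 187 and 370.3 CPM in KI and 194, 169 and 244 CPM in HIF2a KO kidneys, which overlapped, but 700.3, 744, 459 and 667 CPM in HIF1a KO and 117, 108 and 212 CPM in DKO kidneys, which did not. Mt2 behaved likewise, with 30.5, 24.9 and 43.9 CPM in KI, 24.9, 28.6 and 27.5 CPM in HIF2a KO, 84.6, 85.1, 66.1 and 53.4 CPM in HIF1a KO and 20.2, 22.4 and 26.5 CPM in DKO kidneys. For neither gene did the interaction pass over all genes (adjusted p = 0.49 for Pdk4 and 0.42 for Mt2). The 12 calls became 3 without DKO replicate 2, 4 without KI replicate 3, and 5 without HIF1a KO replicate 2, HIF1a KO replicate 4 or DKO replicate 3. They became 6 without DKO replicate 1 or HIF2a KO replicate 2, and 7 without KI replicate 2 or HIF1a KO replicate 1. The mean log2 CPM of the list lay at 5.68 to 7.18 in the intact and 5.72 to 6.24 in the deleted kidneys.

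Of 20 circadian clock genes 7 fell and none rose (35.0%, median -0.24), among them Ciart, Cry1, Usp2, Nfil3, Per2 and Per1. Cry1, a repressor of the clock, held 9.22, 15.9 and 13.8 CPM in KI, 22.2, 19, 21.5 and 26.5 CPM in HIF1a KO, 10.2, 9.49 and 9.27 CPM in HIF2a KO and 9.35, 8.49 and 8.61 CPM in DKO kidneys. The HIF2a-deleted kidneys were alike and KI replicate 1 fell among them (-0.92 ± 0.17, SE, adjusted p = 0.017). The count of 7 became 1 without DKO replicate 2, 3 without HIF1a KO replicate 4, HIF2a KO replicate 3, DKO replicate 3 or KI replicate 3, and 4 without HIF1a KO replicate 2 or HIF2a KO replicate 2. The hour of collection is not given in the sources used here.

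**Figure D3:**
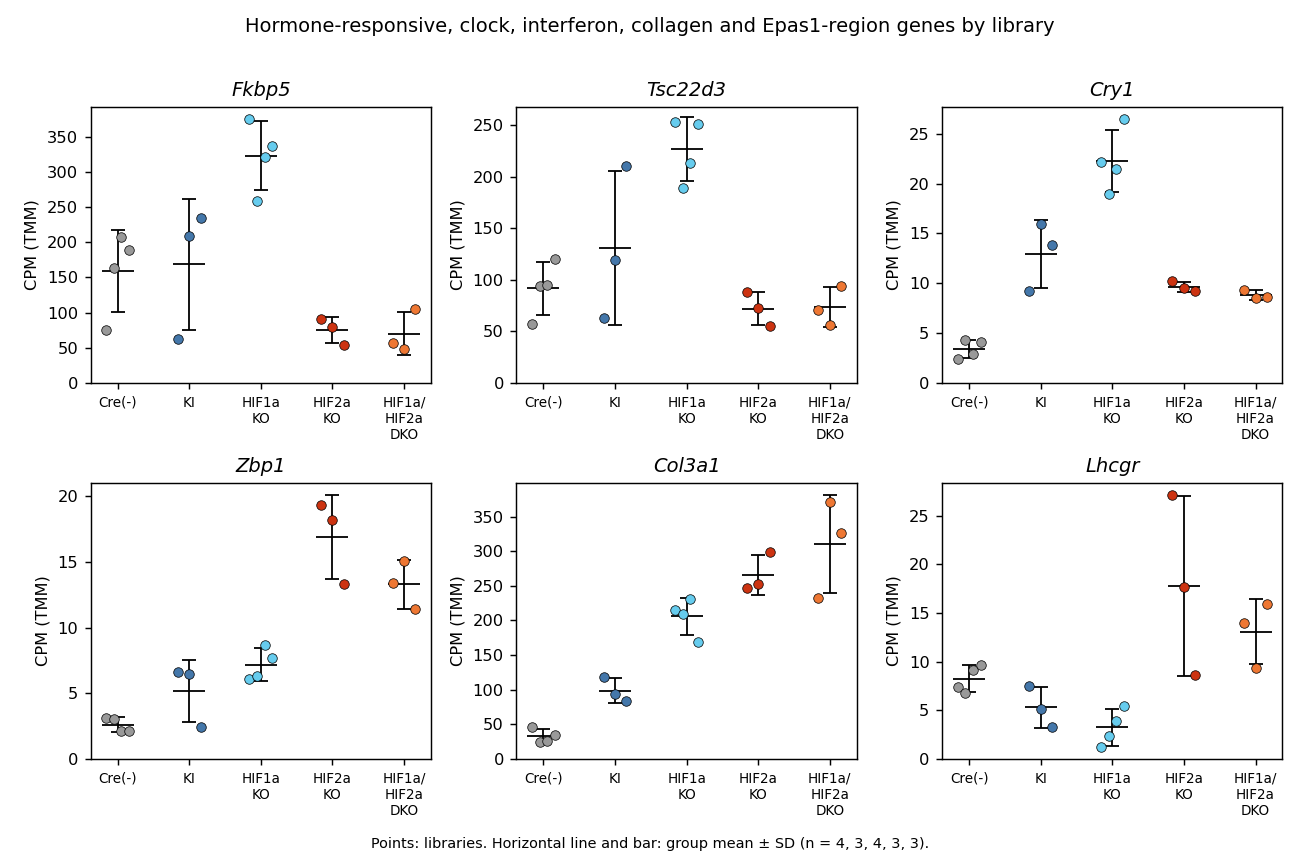
Level in CPM (TMM-scaled, linear axis from 0) of Fkbp5, Tsc22d3, Cry1, Zbp1, Col3a1 and Lhcgr in each library, with a point per library and the group mean ± SD (n = 4, 3, 4, 3 and 3 from left to right). Fkbp5, Tsc22d3 and Cry1 are high in HIF1a KO and low in both HIF2a-deleted groups, and for Zbp1, Col3a1 and Lhcgr every HIF2a-deleted kidney lies above every HIF2a-intact knock-in kidney.

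Of 21 antioxidant genes 4 fell and none rose (19.0%, median -0.27). Prdx6, a peroxiredoxin that reduces phospholipid peroxides, was the clearest, with 739.7, 1039 and 1265 CPM in KI, 589.6, 786, 566 and 725 CPM in HIF1a KO, 356, 513 and 518 CPM in HIF2a KO and 424, 284 and 322 CPM in DKO kidneys. The groups did not overlap (-1.04 ± 0.15, SE, adjusted p = 0.0088) and the call held without any 1 library. The other lower members were Hmox1, Gstp1 and G6pdx. Gclc, which limits glutathione synthesis, had -0.87 ± 0.25 without passing (SE, adjusted p = 0.063): it was 398, 460.2 and 709 CPM in KI and 578, 414 and 443 CPM in HIF2a KO, but 971, 931, 1194 and 1353 CPM in HIF1a KO and 378, 332 and 448 CPM in DKO kidneys. The count of 4 became 1 without DKO replicate 2, 2 without DKO replicate 3 and 8 without KI replicate 1.

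Among the largest increases, Lhcgr, Dio2, Erich4 and Mmp13 were called whichever library was left out. Dio2, the deiodinase that activates thyroid hormone, held 1.72, 0.965 and 0.341 CPM in KI, 2.92, 1.25, 2.8 and 1.84 CPM in HIF1a KO, 3.47, 3.58 and 5.29 CPM in HIF2a KO and 4.7, 5.91 and 11.2 CPM in DKO kidneys, without overlap (1.85 ± 0.33, SE, adjusted p = 0.014). Erich4, a glutamate-rich protein, held 0.687, 0.375 and 0.967 CPM in KI, 1.97, 6.12, 0.9 and 0.784 CPM in HIF1a KO, 11.4, 6.18 and 5.85 CPM in HIF2a KO and 7.63, 9.91 and 8.46 CPM in DKO kidneys (2.54 ± 0.50, SE, adjusted p = 0.019). HIF1a KO replicate 2 alone reached the deleted range, and Cre(-) kidneys held far more, 39.1 to 55.7 CPM. Mmp13, a collagenase, went from 0.538 ± 0.349 to 1.86 ± 0.491 CPM (SD, n = 7 and 6; 1.74 ± 0.32, SE, adjusted p = 0.016) and stood at 1.43 to 3.07 CPM in Cre(-) kidneys. The HIF2a-deleted kidneys thus lay nearer to the Cre(-) level than the HIF2a-intact ones for Mmp13 and Erich4, and further from it for Dio2.

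The remaining 8 of the 12 largest increases were immune genes or members of multigene families. They were the immunoglobulin variable segments Ighv9-1 (3.63), Ighv1-20 (2.72), Igkv3-5 (2.52) and Ighv1-63 (2.19), the receptor gene Cd300ld5, the apolipoprotein L gene Apol7c (2.30), the protease inhibitor Cst7 (1.73) of cytotoxic lymphocytes and the chemokine Xcl1 (1.59), with log2 fold changes in parentheses. Igkv3-5 spanned 1.65 to 18 CPM in the intact and 3 to 64.3 CPM in the deleted kidneys. Ighv9-1 reached 9 CPM in DKO replicate 3 and 0.549 CPM or less in every intact kidney. Cd300ld5 was at 0 in all KI kidneys and in 3 of the 4 HIF1a KO kidneys, and also in HIF2a KO replicate 1 and DKO replicate 3, and its fitted fold depends on the constant that edgeR adds, so that no fold is given. Counts of near-identical family members such as these can be split between copies, and several values lie near the level of 3 counts.

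Of 21 interferon-stimulated genes, a list added after values of some members were seen, 14 rose, none fell and 7 did not pass (66.7% called, median 0.71). Zbp1, a sensor of left-handed nucleic acids, held 6.59, 6.43 and 2.44 CPM in KI, 6.08, 6.28, 8.71 and 7.68 CPM in HIF1a KO, 19.3, 18.2 and 13.3 CPM in HIF2a KO and 13.4, 15.1 and 11.4 CPM in DKO kidneys (1.26 ± 0.23, SE, adjusted p = 0.015). Isg15, a ubiquitin-like modifier, held 4.24, 2.3 and 1.25 CPM in KI, 3.4, 4.31, 3.85 and 4.04 CPM in HIF1a KO, 6.55, 11.1 and 7.84 CPM in HIF2a KO and 7.78, 6.64 and 6.84 CPM in DKO kidneys (1.25 ± 0.25, SE, adjusted p = 0.020). Cxcl10, a chemokine for T cells, held 8.53, 7.61 and 4.44 CPM in KI, 7.68, 5.5, 7.6 and 7.57 CPM in HIF1a KO, 13.9, 17.4 and 9.27 CPM in HIF2a KO and 11.3, 14.9 and 11.5 CPM in DKO kidneys (0.89 ± 0.18, SE, adjusted p = 0.018). For all 3 genes the groups did not overlap. The summed level of the list was 370.0 to 513 CPM in the intact, 645 to 895 CPM in the deleted and 305 to 367 CPM in Cre(-) kidneys. The median was 0.92 with HIF1a intact and 0.44 with HIF1a deleted. Leaving out DKO replicate 2 left 6 calls, HIF1a KO replicate 2 left 7, DKO replicate 3 or KI replicate 2 left 8, and HIF2a KO replicate 2 or replicate 3 left 9. Eif2ak2, the interferon-induced kinase PKR, is a neighbour of Epas1 and is described with that region.

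Of the immune cell lists, that of dendritic cells and monocytes had the most calls. Of its 18 genes, also added after values were seen, 5 rose and none fell (27.8%, median 0.63): Ccr2, Mgl2, Clec12a, Clec9a and Xcr1. Ccr2, the chemokine receptor of inflammatory monocytes, held 11.2, 6.22 and 2.9 CPM in KI, 10.5, 12.6, 18.9 and 14.9 CPM in HIF1a KO, 22.4, 15.2 and 16.6 CPM in HIF2a KO and 23.2, 30.4 and 28.3 CPM in DKO kidneys (1.15 ± 0.25, SE, adjusted p = 0.024). HIF1a KO replicate 3 overlapped with the HIF2a KO kidneys. These 5 calls became 0 without DKO replicate 2 and 1 without HIF1a KO replicate 2, HIF1a KO replicate 4 or HIF2a KO replicate 3. They became 2 without DKO replicate 1, DKO replicate 3 or KI replicate 2, and 3 without HIF1a KO replicate 3 or HIF2a KO replicate 2. All 15 markers of T, B and plasma cells had positive log2 fold changes (median 0.95), yet none was called, and their summed level spread from 1355 to 14751 CPM in the intact and from 4814 to 12284 CPM in the deleted kidneys. Among 14 macrophage and other myeloid markers, Cx3cr1 rose and Cd68 fell. Cx3cr1, the fractalkine receptor, held 29.9, 18.8 and 6.37 CPM in KI, 7.03, 7.63, 13.4 and 8.62 CPM in HIF1a KO, 29.7, 30.1 and 29.4 CPM in HIF2a KO and 34.6, 28.9 and 26.8 CPM in DKO kidneys (1.23 ± 0.30, SE, adjusted p = 0.035). KI replicate 1 was as high as the deleted kidneys. Cd68, a lysosomal glycoprotein used as a macrophage marker, went from 811 ± 292 to 563 ± 179 CPM (SD, n = 7 and 6; -0.56 ± 0.14, SE, adjusted p = 0.035) and stood at 3.21 to 5.73 CPM in Cre(-) kidneys. The calls of Cx3cr1 and Cd68 each held in 4 of the 13 fits without a library. The share of immune cells in each kidney was not measured, and its part in the interferon result was not tested.

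Fibrillar collagens were higher after HIF2a loss. Of 20 genes of extracellular matrix and fibrosis 6 rose and none fell (30.0%, median 0.32). Col1a1, a chain of collagen I, held 103, 77 and 59.4 CPM in KI, 131, 134, 153 and 115 CPM in HIF1a KO, 149, 182 and 189 CPM in HIF2a KO and 172, 233 and 200.3 CPM in DKO kidneys (0.84 ± 0.14, SE, adjusted p = 0.014). HIF1a KO replicate 3 was just above HIF2a KO replicate 1. Col3a1, the chain of collagen III, held 118, 94.1 and 83 CPM in KI, 215, 209, 231 and 169 CPM in HIF1a KO, 247, 252 and 299 CPM in HIF2a KO and 232, 371 and 327 CPM in DKO kidneys, without overlap (0.98 ± 0.17, SE, adjusted p = 0.014). Col3a1 rose by 1.42 ± 0.15 on the HIF1a-intact and by 0.59 ± 0.17 on the HIF1a-deleted background (SE), a difference that did not pass over all genes (adjusted p = 0.67). Col5a1 and Col1a2 (both 0.53), the microfibril gene Fbn1 (0.45) and Col6a2 (0.63) also rose. The 6 calls became 2 without DKO replicate 2 and 1 without the HIF1a covariate. A pair of mesenchymal markers moved in the same direction among 13 of pericytes, fibroblasts and smooth muscle: Des, an intermediate filament, by 0.30 ± 0.06 (SE, adjusted p = 0.023), and Pdgfrb, the platelet-derived growth factor receptor of pericytes and fibroblasts, by 0.42 ± 0.10 (SE, adjusted p = 0.034). These 2 calls became 0 without DKO replicate 2 and 1 without HIF1a KO replicate 2 or 4, HIF2a KO replicate 1 or 2, DKO replicate 3 or KI replicate 2 or 3. Of that list 15.4% was called against 5.65% over all genes, while 7 of its 13 log2 fold changes were negative. Its median was -0.12 and its summed level was 758 to 901 CPM in the intact and 716 to 868 CPM in the deleted kidneys. The part of these cell types in the collagen result was not tested.

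**Figure D4:**
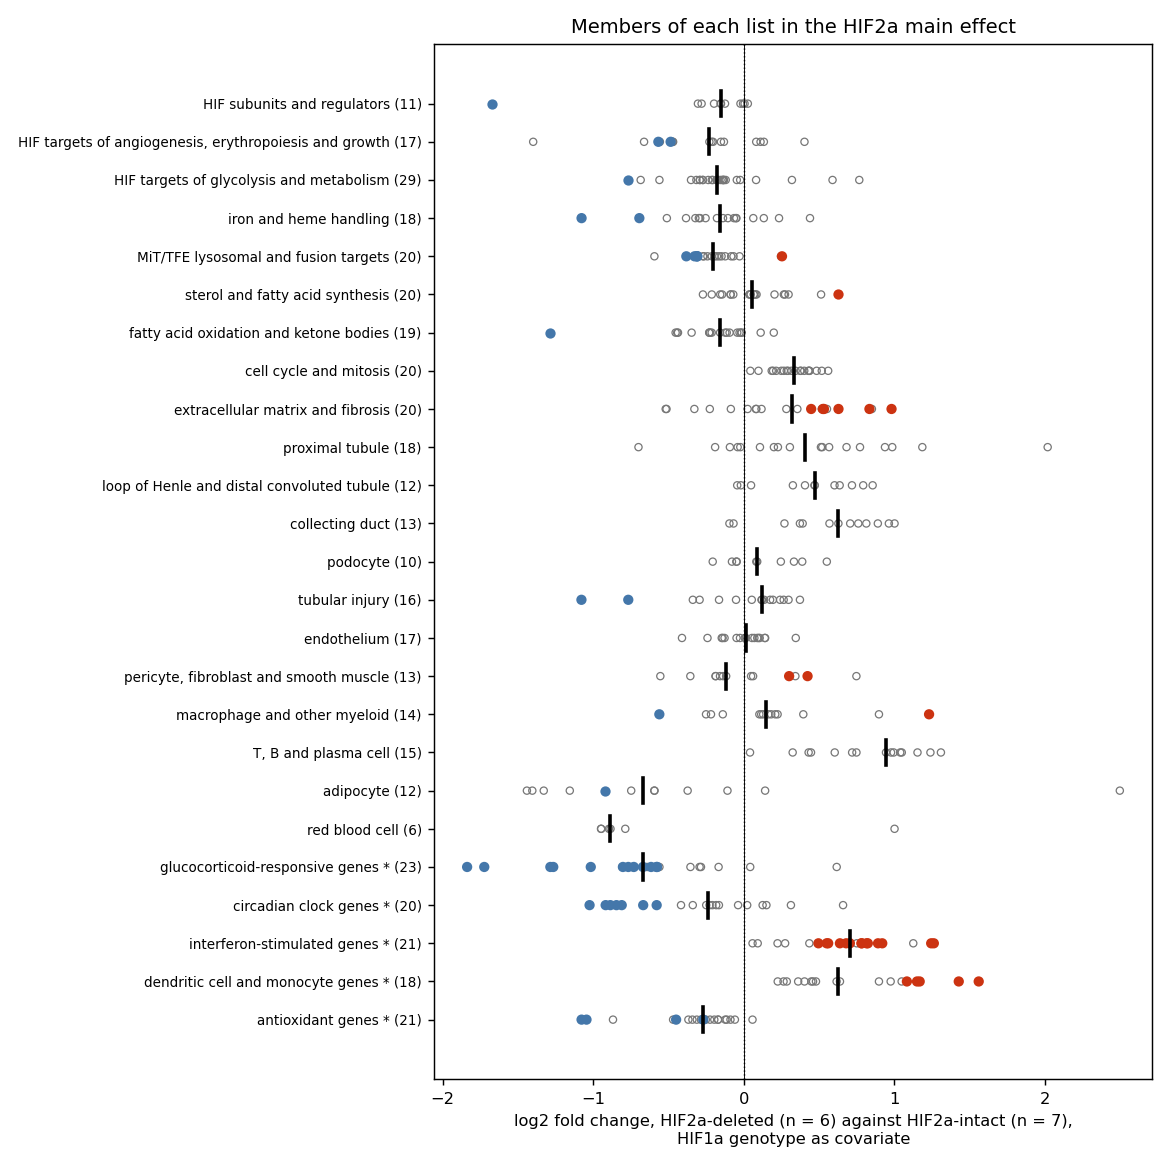
Log2 fold change of each measured member (points) of 25 gene lists in the HIF2a-deleted (n = 6) against the HIF2a-intact (n = 7) knock-in kidneys, with the number of members in parentheses, a black bar at the list median, filled points for genes that passed the test (blue lower, red higher) and an asterisk on the 5 added lists. Called genes lie to the right for interferon-stimulated, dendritic cell and matrix genes and to the left for glucocorticoid-responsive, clock and antioxidant genes.

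No tubular marker was called in the joint fit. Proximal tubule genes (18, median 0.41), loop of Henle and distal convoluted tubule genes (12, median 0.47) and collecting duct genes (13, median 0.63) had 0 calls each, with medians of 0.72 to 0.88 on the HIF1a-intact and 0.05 to 0.42 on the HIF1a-deleted background. With DESeq2 the collecting duct list had 5 higher calls, the loop list 2 and the proximal tubule list 1 higher and 1 lower, and without HIF1a KO replicate 1 these lists had 3, 1 and 2 higher calls by edgeR. The summed proximal tubule level was 1968 to 5834 CPM in the intact and 2019 to 5055 CPM in the deleted knock-in kidneys, against 28119 to 35597 CPM in Cre(-) kidneys, so that this segment's defining transcripts were lower in both knock-in groups than in Cre(-) kidneys. Kap, an androgen-regulated proximal tubule gene, had the largest value, 2.02 ± 0.59 without passing (SE, adjusted p = 0.062), with a spread from 16.1 to 611 CPM within the deleted kidneys. Podocyte (10, median 0.09) and endothelial genes (17, median 0.01) had 0 calls as well. All 20 cell cycle genes had positive log2 fold changes (median 0.33; 0.72 with HIF1a intact and 0.07 with HIF1a deleted) and none was called. Among 16 tubular injury genes Cdkn1a and Krt20 fell (12.5% called against 5.65% over all genes), while 10 of 16 log2 fold changes were positive (median 0.12). Cdkn1a, the p21 inhibitor of the cell cycle, held 69.2, 68.4 and 115 CPM in KI, 69.7, 80.6, 66.4 and 90.7 CPM in HIF1a KO, 49.3, 61.6 and 51.3 CPM in HIF2a KO and 42.2, 36 and 47.7 CPM in DKO kidneys, without overlap (-0.77 ± 0.13, SE, adjusted p = 0.014). Krt20, an intermediate filament induced in damaged epithelium, went from 11.8 ± 2.87 to 5.56 ± 2.12 CPM (SD, n = 7 and 6; -1.08 ± 0.26, SE, adjusted p = 0.033), and its call held in 5 of the 13 fits without a library.

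Plin4, a lipid droplet coat protein on the adipocyte list, was among the most separated of the named genes. It held 234, 369.6 and 303 CPM in KI, 235, 260.2, 246 and 283 CPM in HIF1a KO, 183, 159 and 182 CPM in HIF2a KO and 150.0, 91.3 and 136 CPM in DKO kidneys, without overlap (-0.92 ± 0.13, SE, adjusted p = 0.0077), and 8.65 to 11.9 CPM in Cre(-) kidneys. It was the only member of 12 to be called (median -0.67). The summed adipocyte level was 599 to 3256 CPM in the intact and 505 to 836 CPM in the deleted kidneys; KI replicate 2 stood apart, and Plin4 was called without it as well. With the adipocyte score as a covariate 518 genes were called in all (245 higher and 273 lower). Of 20 genes of sterol and fatty acid synthesis, Scd2, a stearoyl-CoA desaturase, rose (0.63 ± 0.15, SE, adjusted p = 0.034) and none fell. Of 19 genes of fatty acid oxidation and ketone bodies, Pdk4 fell and none rose (median -0.16). These shares of 5% and 5.26% are near the 5.65% over all genes. The 6 red blood cell genes had 0 calls (median -0.89), and their summed level was 32.9 to 423 CPM in the intact and 36.2 to 91.7 CPM in the deleted kidneys.

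Genes near Epas1 on chromosome 17 were examined because the floxed allele carries its flanking DNA with it. Within 10 Mb of the Epas1 start 14 of 69 tested genes were called (20.3%; 5 higher and 9 lower), against 34 of 762 (4.46%) on the rest of that chromosome. The share was 23.1% within 1 Mb, 24.2% within 5 Mb and 14.5% within 20 Mb; the window and the genes were chosen after values were seen. Lhcgr, the luteinizing hormone receptor and a member of the 12 largest increases, starts 1.96 Mb from Epas1. It held 7.5, 5.09 and 3.3 CPM in KI, 1.19, 2.39, 3.85 and 5.49 CPM in HIF1a KO, 27.1, 17.7 and 8.6 CPM in HIF2a KO and 14, 9.39 and 15.9 CPM in DKO kidneys (1.87 ± 0.34, SE, adjusted p = 0.015), and 6.73 to 9.62 CPM in Cre(-) kidneys. Ppp1r21, an endosomal protein 1.78 Mb from Epas1, held 111, 181 and 179 CPM in KI, 93.7, 139.8, 101 and 116 CPM in HIF1a KO, 77.2, 69.4 and 63.2 CPM in HIF2a KO and 70.5, 60.4 and 58.2 CPM in DKO kidneys (-1.0 ± 0.13, SE, adjusted p = 0.0077). Cox7a2l, an assembly factor of mitochondrial supercomplexes 3.25 Mb to the other side, held 180.2, 188 and 221 CPM in KI, 168, 173, 150.3 and 146 CPM in HIF1a KO, 98.5, 111 and 109 CPM in HIF2a KO and 124, 92.5 and 93 CPM in DKO kidneys (-0.75 ± 0.09, SE, adjusted p = 0.0060). For these 3 genes the groups did not overlap and the call held without any 1 library. The others were Mcfd2 (-0.40), Cript (-0.34), Ston1 (-0.67), Cebpz (-0.28), Galm (-0.20), Gm6548 (-0.92) and AC151284.2 (-1.51), which were lower, and Pigf (0.42), Mta3 (0.23), Gpatch11 (0.47) and Eif2ak2 (0.39), which were higher. Loss of HIF2a and the flanking DNA of the floxed allele cannot be told apart for these genes.

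**Figure D5:**
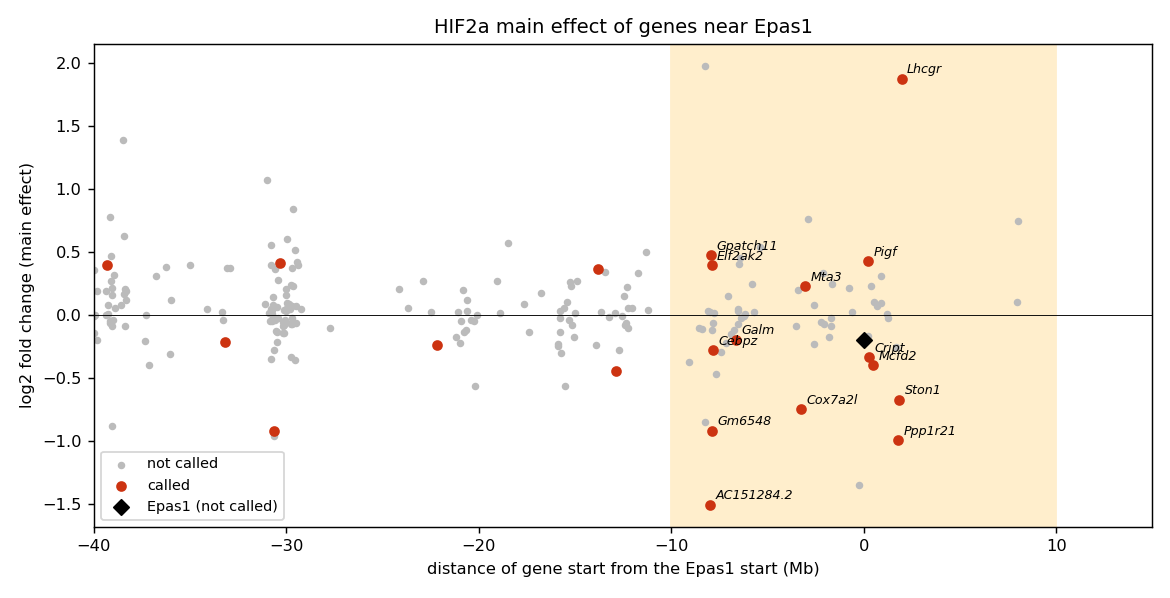
Log2 fold change of each tested gene (points) against the distance of its start from the Epas1 start in Mb, HIF2a-deleted (n = 6) against HIF2a-intact (n = 7) knock-in kidneys. Filled points mark the called genes, 14 of 69 within 10 Mb, with Lhcgr as the highest at 1.87.

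A pair of predicted genes tracked genotype almost as a switch and was picked out after values were seen. Gm6969, a processed pseudogene at chr12:24638669-24639010, held 0 to 1.31 CPM in all 11 libraries without floxed HIF2a and 84.5, 91.5 and 84 CPM in HIF2a KO and 43.4, 82.4 and 76.4 CPM in DKO kidneys (6.74 ± 0.24, SE, adjusted p = 9.3e-09). Gm3375 (chr7:3181093-3181888) held 13.5, 13.2 and 14 CPM in KI and 13.8 and 15.9 CPM in Cre(-) replicates 3 and 4, and 0.205 CPM or less in every library with a floxed HIF gene, the Cre(-) replicates 1 and 2 among them. It was called (-6.78 ± 0.76, SE, adjusted p = 0.0060), and the change came from the HIF1a-intact background (-7.66 ± 0.26), since on the HIF1a-deleted background both groups were at or under the level of 3 counts. Reads of a processed pseudogene and of its parent gene can be exchanged, and these counts are uncertain in that respect. Gm3375 was also low in the 2 HIF1af/f Cre(-) kidneys and not in the other 2. A floxed HIF gene and other DNA of the same mouse line cannot be told apart here, and the cause was not tested.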

How the data were processed

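Poly(A) RNA of 17 whole kidneys was sequenced with a stranded kit. Per the labels, reads were trimmed with Trim Galore 0.6.6 and cutadapt 2.5 and aligned with STAR 2.7.9a, and the authors deposited expected counts and TPM per transcript, which RSEM estimated per the methods; the processing notes name hg38 and GRCm38. Each of the 119353 transcripts listed was matched to GENCODE M21 (116770 matched, 97.8%), and expected counts were summed to 35971 genes and rounded. Genes were filtered with filterByExpr (minimum count 10), which left 16738 and removed 19233. The test was edgeR 4.0.16 (TMM, quasi-likelihood F test) on HIF1a and HIF2a genotype, with Benjamini-Hochberg adjustment over all tested genes. DESeq2 1.42.0 and limma 3.58.1 (log2 of TPM plus a pseudocount of 1 or 0.1) were alternatives, in R 4.3.3. A glucocorticoid-responsive score as covariate and 5 gene lists were added after seeing the data. The members and all lists were chosen with earlier results of these data known. Named genes are, in each direction, the 12 with the largest called log2 fold change at a mean TPM of at least 1 and the same sign on both HIF1a backgrounds (predicted genes left out), the HIF subunits and regulators, and up to 4 called members per list, or 2 uncalled where none was called; genes named beyond these were chosen after their values were seen. Promoters are RefSeq sequences of GRCm38.p6; 709 of the 946 called genes matched. The fit was tested on simulated counts before use. Sex is not given in the sources used here; across all 17 libraries counts of the Y-linked genes were 0 to 4 for Ddx3y, 0 to 2 for Eif2s3y, 6 to 20 for Uty and 139 to 362 for Kdm5d. Results of some genes are not reported here.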

Additional observations from a re-analysis of the deposited data

Results flagged for a closer look

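The HIF1a KO group, the only group of the comparison with 4 libraries, was searched for a library far from the rest in the 72 named genes, by Dixon's test on the gap to the nearest library over the range (critical value 0.829). Of 72 genes 8 had such a library, while chance gives about 1 in 20, or 5%. In replicate 2, Lyve1 stood at 9.65 CPM against 4.25 to 4.94 in the others, Cst7 at 0.363 CPM against 0.823 to 0.9, and the podocyte and stromal transcription factor gene Tcf21 at 7.47 CPM against 14.5 to 15.8. In replicate 1, Bnip3 stood at 115 CPM against 81.9 to 86.5 and the podocyte chloride channel gene Clic3 at 3.87 CPM against 2.35 to 2.49. In replicate 4, the endothelial transcription factor gene Sox17 stood at 14.6 CPM against 13.3 to 13.5, Ighv1-63 at 0.392 CPM against 0.15 to 0.179, and Cd300ld5 at 0.392 CPM against 0 in the others. The Cd300ld5 and Ighv1-63 values lie within a few counts of the level of 3 counts.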

How the results depend on the processing

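The main count of 451 higher and 495 lower genes became 928 and 1123 with DESeq2, 692 and 148 with limma on log2(TPM + 1), 581 and 135 with log2(TPM + 0.1), and 55 and 60 at an absolute log2 fold change of at least 1. It became 182 and 213 without the HIF1a covariate, 245 and 273 with the adipocyte score and 287 and 412 with the proximal tubule score as covariate. The glucocorticoid-responsive score as covariate gave 1 and 2. Of the 23 genes in that score 12 were themselves called, so that it can take up part of the genotype difference. The score did not follow HIF2a genotype alone: it was 5.68 and 6.08 in KI replicates 1 and 2, against 5.72 to 6.24 in the HIF2a-deleted kidneys. Leaving out each library in turn gave 105 to 612 higher and 98 to 757 lower genes. HIF2a KO against KI (2 genes) gave 541 with DESeq2, 14 without the filter and 6 or 10 with limma at the larger or smaller pseudocount. DKO against HIF1a KO (155 genes) gave 799 with DESeq2, 46 or 48 with limma and 1 to 103 without a library. The interaction (0 genes) gave 47 with DESeq2, 1 with limma at either pseudocount, 1 with the glucocorticoid-responsive score and 0 to 1 without a library. The cause of each of these differences was not tested.

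The deviations of samples with the same replicate number had correlations of -0.227 to 0.255 (18 pairs, median -0.0375, 3 over 0.1). For samples with unlike numbers they were -0.369 to 0.249 (45 pairs, median 0.017, 14 over 0.1). No pairing by number was seen in these values. With so few mice a group the correlations cannot decide whether the numbers pair the mice. With a replicate block 10 genes were higher and 17 lower, and 1 of the called named genes kept its call. In that setting DKO against HIF1a KO gave 1 gene, and Egln1 and Egln3 took log2 fold changes of -0.01 each.

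No called named gene reversed. Among genes without a call, Hif1a turned to 0.08 with either limma scale, 0.01 without the HIF1a covariate, 0.02 with the adipocyte and 0.09 with the proximal tubule score, and ranged from -0.07 to 0.05 without a library. Arnt turned to 0.04 with limma and 0.02 with the glucocorticoid-responsive score, which also took Cyp4b1 to 0.04 and Alas2 to 1.05. Egln1 turned to -0.01 with a coefficient per group or all 17 libraries and ranged from -0.05 to 0.08 without a library, as did Egln3 from -0.06 to 0.13 and Alas2 from -1.17 to 0.05. All 46 called named genes kept their call with DESeq2 size factors and 45 with the DESeq2 test. The planned Xist covariate was not run, since Xist is not analysed here. The 3 or 4 mice a group limit the precision of every value, and genes near 3 counts carry counting error on top.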
